A study of Homo sapiens with 6 samples.

Results

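The 10 genes described here store, move or sense iron in the cell: FTH1, FTL, TFRC, NCOA4, SLC40A1, HMOX1, IREB2, SLC11A2, STEAP3 and CYBRD1. They were picked by symbol from the 19470 symbols of the count table, all 10 were found, and all 10 were among the 13336 genes with enough counts to be tested. RNA sequencing compared 3 libraries of A549 cells activated by osteoclast-conditioned medium with 3 libraries of A549 cells in which dormancy had been induced. A549 is an established human lung adenocarcinoma line, labelled wild type in genotype in both groups, and osteoclasts are the cells that resorb bone. The titles tag activated libraries OC and dormant libraries SF, and neither the way dormancy was induced nor the base medium of either group is given in the sources used here. A difference between groups therefore cannot be told apart from a difference of medium. The labels do not say if replicates are separate cultures. The p-values here are thus about the spread among these libraries, which may be technical.

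Iron enters most cells bound to transferrin, through the transferrin receptor encoded by TFRC. It is reduced in endosomes by STEAP3 and crosses into the cytosol through the transporter encoded by SLC11A2. Surplus iron is held in ferritin, a hollow shell of heavy (FTH1) and light (FTL) chains, and is freed when NCOA4 carries ferritin to the lysosome. Iron regulatory proteins, encoded by ACO1 and IREB2, bind iron-responsive elements, which are short hairpins in transcripts. Bound in the 5' untranslated region, as in ferritin and SLC40A1 transcripts, they hold back translation, and bound in the 3' untranslated region of TFRC they slow decay of the transcript. RNA counts do not show the first of these effects. A549 is known for a KEAP1 mutation that releases the transcription factor NRF2, of which FTH1, FTL and HMOX1 are known targets.

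The hairpins are printed because they are the sequence feature that links a storage gene, an export gene and an uptake gene of this set. Transcripts of GENCODE 29 (GRCh38) were searched for a C, 5 bases, the loop letters CAGTGN and 5 bases that pair with the 5 before the loop, allowing G with T. Each element below is 30 bases, 5' to 3' on the transcript strand, with the 6 loop bases in capitals.

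FTL: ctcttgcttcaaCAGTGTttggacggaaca

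SLC40A1: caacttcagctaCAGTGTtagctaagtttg

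TFRC element 1: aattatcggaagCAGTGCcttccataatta

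TFRC element 2: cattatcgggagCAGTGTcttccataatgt

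TFRC element 3: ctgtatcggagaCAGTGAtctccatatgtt

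TFRC element 4: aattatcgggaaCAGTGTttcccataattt

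The FTL element lies in the 5' untranslated region at chr19:48965335-48965364 on the plus strand, and that of SLC40A1 in the 5' untranslated region at chr2:189580660-189580689 on the minus strand. The 4 TFRC elements lie in its 3' untranslated region on the minus strand, at chr3:196050978-196051007, chr3:196050574-196050603, chr3:196050509-196050538 and chr3:196050462-196050491 in transcript order. All 4 printed TFRC elements share the letters tatcgg, which run into the stem, whereas the loop ends in C, T, A and T. Transcripts of NCOA4, IREB2, SLC11A2, STEAP3 and CYBRD1 held no match, which says only that these letters and pairs were not found. FTH1 and HMOX1 were not examined individually for this feature. At least 1 match was found in 291 of 19702 protein-coding genes (1.48%), so a match is a description and not evidence of binding.

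Storage transcripts were lower in activated cells. FTH1 (chromosome 11, 61964285 to 61967634, RefSeq GRCh38.p14) had 6916, 6411 and 6765 TMM-normalised CPM (counts scaled to the size of the library) in activated libraries, against 9640, 9790 and 9749 CPM in dormant libraries. All activated values lay below all dormant values. The change was 1.45-fold lower in activated cells (log2 fold change -0.54 ± 0.05 SE, adjusted p = 5.11e-08, edgeR's quasi-likelihood test). FTL (chromosome 19, 48965309 to 48966879) had 5865, 4977 and 5454 CPM in activated libraries, against 7658, 7860 and 7471 CPM in dormant libraries. Again the groups did not overlap, and activated replicate 1 was the highest and replicate 2 the lowest of its group for both ferritin genes. FTL was 1.41-fold lower (log2 fold change -0.50 ± 0.06 SE, adjusted p = 1.46e-06). In bulk RNA, fewer cells with a high level and less RNA per cell cannot be told apart.

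Ferritin transcripts took up a large part of these libraries. FTH1 and FTL together made up 1.16% ± 0.0660 of all counts in activated libraries and 1.83% ± 0.0400 in dormant libraries (SD, n = 3 each, as for every later mean ± SD). By count, FTH1 ranked 7 in activated cells and 1 in dormant cells among all genes, and FTL ranked 8 in activated cells and 3 in dormant cells. By FPKM, the count divided by gene length and library total, FTL ranked 1 in both groups, at 5941 ± 482 FPKM in activated cells and 9234 ± 299 FPKM in dormant cells. FTH1 ranked 3 in activated cells and 2 in dormant cells, at 5303 ± 201 FPKM in activated and 8485 ± 146 FPKM in dormant cells. GENCODE 29 names 25 pseudogenes after FTH1 and 16 after FTL, and 0 of them have a symbol in the count table. Reads shared with such copies may have been lost or split, so the absolute levels of both genes are uncertain. Exons of BEST1, on the opposite strand, overlap those of FTH1, and BEST1 had 26 to 46 counts per activated library and 41 to 57 per dormant library, against at least 222056 for FTH1 in any library. The strand setting is not stated, so reads in the shared exons may be missing from both genes. These counts do not show how many.

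**Figure D1:**
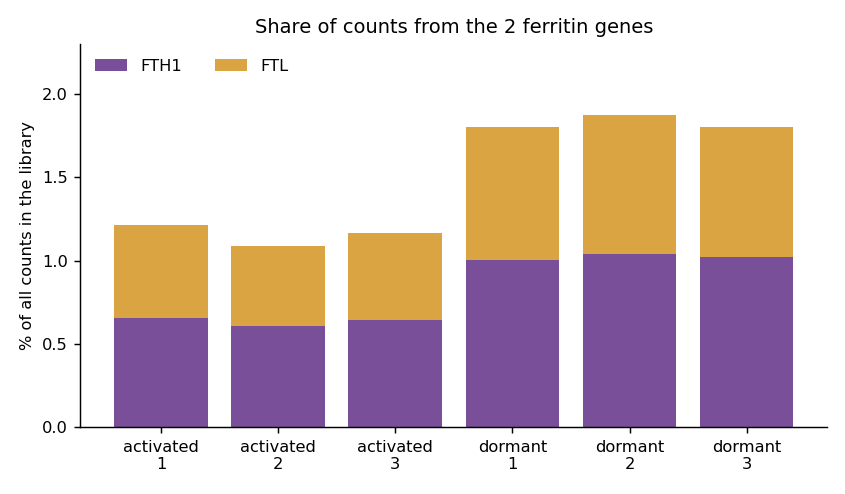
Stacked bars give the percentage of all counts of each library (y axis) that came from FTH1 and FTL, with the 3 activated libraries left of the 3 dormant ones. Both segments are shorter in every activated library, with a mean of 1.16% for the pair in activated and 1.83% in dormant libraries.

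The FTH1/FTL ratio of FPKM within a library was 0.854, 0.933 and 0.898 in activated libraries and 0.911, 0.902 and 0.945 in dormant libraries, and these ranges overlapped. The mean log2 difference was -0.04 (activated minus dormant), with SDs between libraries of 0.06 in activated and 0.04 in dormant cells, and p = 0.4 in a two-sided exact permutation test. A p that misses the threshold does not show that the ratio is the same in both groups. A ratio within a library does not depend on how libraries are scaled to one another.

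A transcript for the release of stored iron was also lower. NCOA4 (chromosome 10, 46005088 to 46030623), the receptor that takes ferritin into autophagy, had 180, 177 and 181 CPM in activated libraries, against 344, 328 and 332 CPM in dormant libraries. The groups were far apart relative to a spread of 1.12% of the mean in activated cells and 2.51% in dormant cells. NCOA4 was 1.87-fold lower (log2 fold change -0.90 ± 0.05 SE, adjusted p = 1.99e-10). The NCOA4/FTH1 ratio of FPKM averaged 0.00737 ± 0.000233 in activated and 0.00947 ± 0.000314 in dormant libraries, without overlap. GENCODE 29 names 3 pseudogenes after NCOA4.

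HMOX1 (chromosome 22, 35381096 to 35394207) encodes heme oxygenase, which opens heme and frees its iron, and it changed most of the 10 genes. It had 125, 115 and 122 CPM in activated libraries, against 423, 394 and 409 CPM in dormant libraries. No activated library came near the dormant range, and the level was 3.39-fold lower (log2 fold change -1.76 ± 0.05 SE, adjusted p = 5.23e-13). Of all tested genes, 4.16% had a lower log2 fold change than HMOX1. It was the only one of the 10 with at least a 2-fold fall, a size reached by 11.0% of tested genes.

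Uptake transcripts did not move together. TFRC (chromosome 3, 196049284 to 196082090) had 487, 508 and 483 CPM in activated libraries, against 251, 261 and 249 CPM in dormant libraries. Every activated library was above every dormant one. TFRC was 1.94-fold higher (log2 fold change 0.96 ± 0.05 SE, adjusted p = 1.18e-10), and 12.0% of tested genes had a higher log2 fold change. STEAP3 (chromosome 2, 119223834 to 119265652), the endosomal ferrireductase, had 94.2, 92.9 and 101 CPM in activated libraries, against 75.9, 78.2 and 78.9 CPM in dormant libraries. This smaller rise, of 1.24-fold, had a log2 fold change of 0.31 ± 0.05 SE (adjusted p = 0.000101) and left the groups apart. Scaled by total counts alone, its log2 fold change was 0.17. An antisense gene, STEAP3-AS1, overlaps STEAP3, and its reads could not be told apart without strand.

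SLC11A2 (chromosome 12, 50952263 to 51028886) encodes the divalent metal transporter that moves iron out of endosomes, and it ran the other way. It had 50.7, 49.99 and 49.4 CPM in activated libraries, against 97.7, 90.4 and 92.7 CPM in dormant libraries. The dormant libraries were all well above the activated ones, and SLC11A2 was 1.87-fold lower in activated cells (log2 fold change -0.90 ± 0.05 SE, adjusted p = 1.07e-09). Its transcripts differ in their 3' ends, and counts per gene cannot separate them. CYBRD1 (chromosome 2, 171522233 to 171558129), a ferrireductase known from the surface of gut cells, had 119, 122 and 125 CPM in activated libraries, against 131, 136 and 131 CPM in dormant libraries. These ranges were close but did not overlap. The call was marginal (log2 fold change -0.12 ± 0.05 SE, adjusted p = 0.0402), and it ended in 10 of 18 alternative settings, in which the adjusted p reached 0.132. Among these were all 6 settings that left out a library.

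The export gene fell and the sensing gene rose. SLC40A1 (chromosome 2, 189560590 to 189580786) encodes ferroportin, the one known cellular iron exporter. It had 9.09, 10.1 and 10.5 CPM in activated libraries, against 12.2, 14.7 and 13.7 CPM in dormant libraries. SLC40A1 was the least abundant of the 10 genes, from 311 to 352 counts per activated library and 456 to 573 per dormant library. It was 1.37-fold lower without overlap (log2 fold change -0.45 ± 0.11 SE, adjusted p = 0.00247). IREB2 (chromosome 15, 78437431 to 78501453) encodes iron regulatory protein 2, which is degraded when iron is plentiful. It had 101, 121 and 112 CPM in activated libraries, against 90.1, 88.7 and 90.2 CPM in dormant libraries. The activated libraries spread more widely, with an SD of 8.76% of the mean, against 0.948% in dormant libraries. IREB2 was 1.24-fold higher (log2 fold change 0.31 ± 0.06 SE, adjusted p = 0.000316). In the 3 settings based on log2 FPKM, the log2 fold change of IREB2 was 0.16 or 0.17 and did not pass, with adjusted p from 0.0502 to 0.0706. With total counts its log2 fold change was 0.18.

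**Figure D2:**
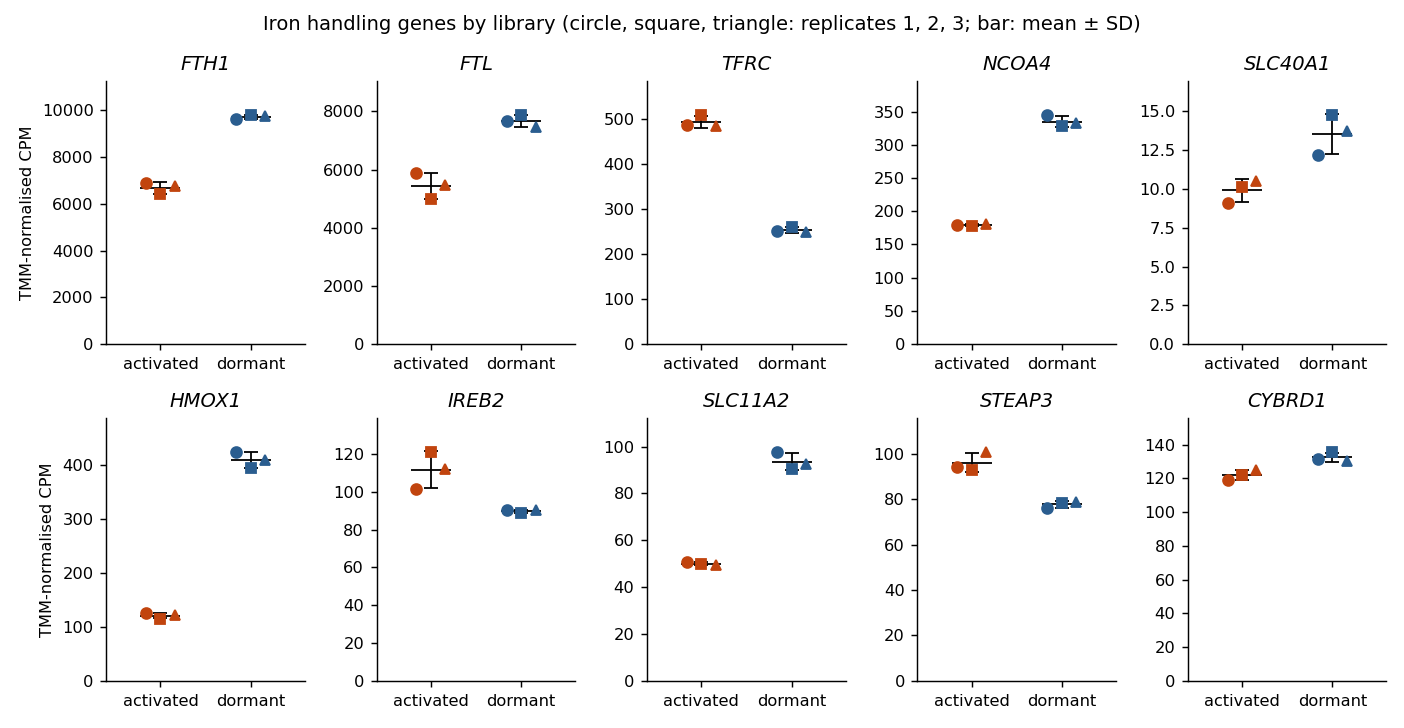
Each panel gives TMM-normalised CPM (y axis, from 0) of 1 gene in the 3 activated libraries (left, red) and the 3 dormant libraries (right, blue), with the symbol marking the replicate and the bar the mean ± SD. The groups separate in all 10 panels, widely for HMOX1, NCOA4, SLC11A2 and TFRC and narrowly for CYBRD1.

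In all, 3 of the 10 genes rose (TFRC, STEAP3 and IREB2) and 7 fell, each past an adjusted p of 0.05. Over all tested genes 73.7% passed, 36.5% higher and 37.2% lower (49.5% of calls higher, 39.7% when scaled by total counts), so passing is common in this comparison and the count alone says little. Groups did not overlap for all 10 genes, against 76.5% of tested genes. The median log2 fold change of the 10 was -0.47, beside -0.02 over all tested genes. Total-count scaling moved the median of all genes by -0.14, and each of the 10 kept its direction under the 18 alternative settings.

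**Figure D3:**
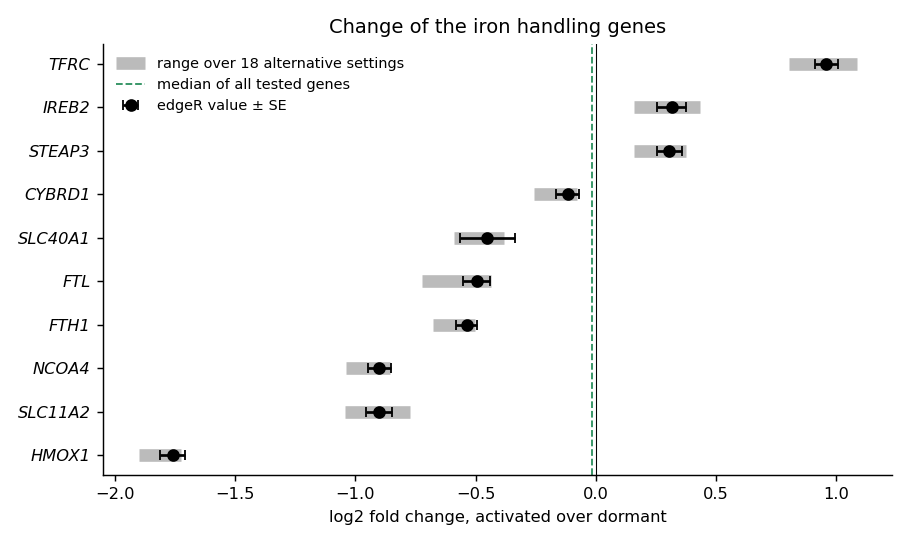
Points give the log2 fold change (x axis, activated over dormant) with its SE for each gene, grey bars the range over 18 alternative settings, and the dashed line the median of all tested genes. The bars of TFRC, from 0.80 to 1.08, and HMOX1, from -1.90 to -1.72, lie far from 0, while that of CYBRD1 runs from -0.26 to -0.08.

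Uptake was also set against storage and export within each library. The TFRC/FTH1 ratio of FPKM was 0.0115, 0.0129 and 0.0117 in activated libraries, against 0.00425, 0.00435 and 0.00417 in dormant libraries, a 2.82-fold difference. SLC40A1/TFRC was 0.0382, 0.0408 and 0.0443 in activated libraries, against 0.0992, 0.116 and 0.112 in dormant libraries, 2.65-fold lower in activated cells. Neither ratio overlapped between groups, and like NCOA4/FTH1 each gave p = 0.1 in a two-sided exact permutation test. That is the smallest p that 3 against 3 libraries allow, so no ratio of the 4 compared could pass the threshold, and the Benjamini-Hochberg value over the 4 was 0.133 for these 3.

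**Figure D4:**
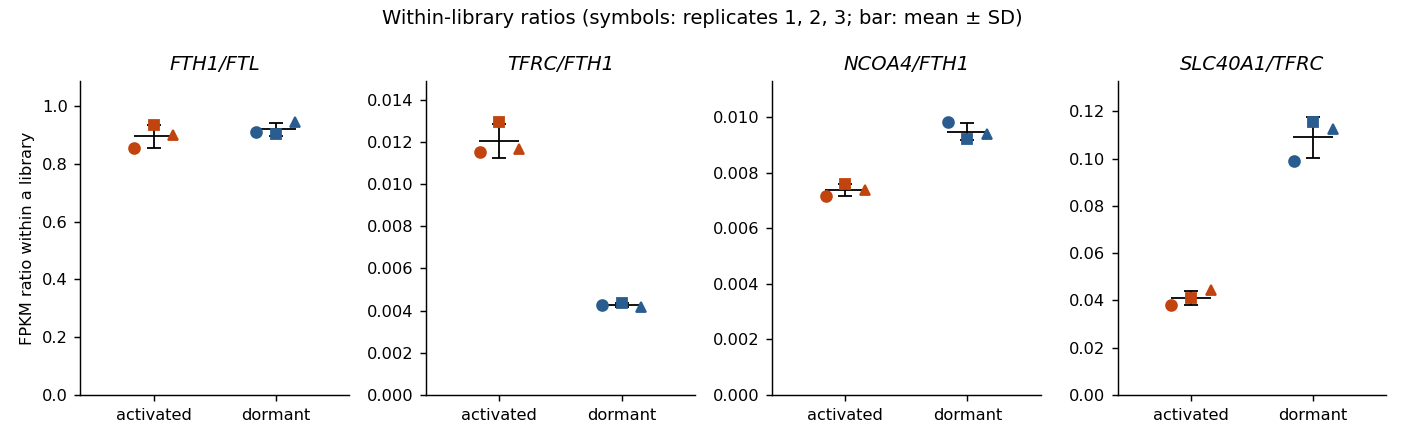
Panels give the ratio of 2 genes' FPKM within each library (y axis, from 0), activated left in red and dormant right in blue, with the symbol marking the replicate and the bar the mean ± SD. FTH1/FTL overlaps between groups, TFRC/FTH1 is higher in activated libraries (mean 0.0120 against 0.00426), and NCOA4/FTH1 and SLC40A1/TFRC are lower there.

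Ordered by FPKM, which is per length, the 10 genes spanned a wide range of levels. The order depends on the gene lengths used, such as 7362 bases for TFRC and 1554 for HMOX1. The annotation behind these lengths is not stated. In activated cells the order was FTL, FTH1, HMOX1, TFRC, NCOA4, CYBRD1, STEAP3, IREB2, SLC11A2 and SLC40A1, and of neighbouring genes only FTL and FTH1 had overlapping ranges. HMOX1 stood at 74.0 ± 3.07 FPKM and TFRC at 63.7 ± 1.78 FPKM there, while SLC40A1 stood at 2.62 ± 0.192 FPKM. In dormant cells NCOA4 preceded TFRC, at 80.3 ± 1.34 and 36.1 ± 1.21 FPKM, HMOX1 stood at 276 ± 7.23 FPKM, and the rest kept the same order. There only IREB2 and SLC11A2 had overlapping ranges, at 13.3 ± 0.0510 and 12.99 ± 0.398 FPKM.

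Other genes of iron transport mostly rose. Of 19 listed, 11 could be tested, and 8 were higher and 2 lower in activated cells (6 and 2 with total counts), with a median log2 fold change of 0.39. That median was 0.25 with total counts, 0.15 with no filter on low counts, 0.21 on filtered log2(FPKM + 1) and 0.0043 on the same values unfiltered. Calls made up 90.9% of the tested genes of this list, beside 73.7% of all tested genes (36.5% higher and 37.2% lower). SLC39A8, a zinc and iron importer, had the largest rise, to 248 ± 5.92 CPM in activated cells, against 54.0 ± 2.04 CPM in dormant cells (adjusted p = 6.22e-14). SLC22A17, a receptor for the siderophore carrier lipocalin 2, was 4.18-fold higher, and TFR2, the second transferrin receptor, 3.20-fold higher, both at low levels. LCN2, lipocalin 2 itself, was 2.65-fold lower, at 206 ± 9.39 CPM in activated and 546 ± 47.2 CPM in dormant cells. SLC39A14, which also imports iron that is not bound to transferrin, was 1.47-fold lower. TF, the gene for transferrin, had 21, 0 and 4 counts in activated and 14, 1 and 3 in dormant libraries, most of them in replicate 1 of each group. HAMP, for the hormone hepcidin, had 0 activated counts, which allows up to 0.0295 CPM, and 1 dormant count.

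Regulators and chaperones of cytosolic iron moved both ways. Of 15 listed genes 12 were tested, and 6 were higher and 4 lower (5 and 4 with total counts), with a median log2 fold change of 0.15 that was 0.01 with total counts, -0.01 on unfiltered log2(FPKM + 1) and 0.09 without activated replicate 2. The share called was 83.3%, beside 73.7% of all tested genes. ACO1, iron regulatory protein 1, was 1.35-fold higher, at 212 ± 7.21 CPM in activated and 157 ± 8.88 CPM in dormant cells (adjusted p = 3.35e-06). FBXL5, the iron-sensing subunit that marks iron regulatory proteins for degradation, had 66.95 ± 3.35 CPM in activated and 62.2 ± 1.89 CPM in dormant cells and did not pass (adjusted p = 0.103). It passed after the gene length correction (adjusted p = 0.0135) and without activated replicate 3 (adjusted p = 0.0481), and its log2 fold change of 0.11 was -0.03 with total counts. RBX1, a ubiquitin ligase subunit, was 2.57-fold higher, and PCBP1, which delivers iron to ferritin, 1.23-fold higher. CDC14A, a phosphatase whose transcript can carry an iron-responsive element, was 1.63-fold lower. Its level was low and spread widely, at 4.47 ± 1.37 CPM in activated and 7.30 ± 1.14 CPM in dormant cells.

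Iron-sulfur cluster assembly, which takes up iron in mitochondria and cytosol, had 13 higher and 6 lower genes of 29 tested (11 and 8 with total counts), and its median of 0.11 turned to -0.03 with total counts. Passing genes were 65.5% of this list, below the 73.7% of all tested genes. BOLA3, GLRX5 and SLC25A28 had the largest rises, of 2.22-fold, 1.91-fold and 1.69-fold. BOLA3 and GLRX5 help hand clusters on, and SLC25A28 carries iron into mitochondria. IBA57 was 1.65-fold lower. In heme synthesis 8 of 11 genes were higher and 1 lower (7 and 1 with total counts), with a median of 0.53. This was 81.8% called, beside the same 73.7% of all tested genes. The median of the heme synthesis list was 0.39 with total counts and 0.38 on filtered log2(FPKM + 1), where 6 genes were higher and 1 lower. It was 0.54 with the size factors of DESeq2, where 10 were higher and 1 lower. ABCB6, a porphyrin transporter, was 3.21-fold higher at 33.6 ± 0.824 CPM in activated and 10.5 ± 0.0654 CPM in dormant cells. The pathway enzymes CPOX and UROS were 1.79-fold and 1.77-fold higher, and TMEM14C, a mitochondrial porphyrin carrier, was 1.26-fold lower.

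Heme transport and breakdown ran the other way, with 2 higher and 7 lower genes of 11 tested and a median of -0.41. Here 81.8% were called, beside 73.7% of all tested genes. FLVCR2, a transporter linked to heme, was 3.51-fold lower and ABCG2, which exports porphyrins among other substrates, 1.54-fold lower, while PGRMC1, a heme-binding membrane protein, was 1.38-fold higher. BACH1, the heme-sensing repressor of HMOX1 and the ferritin genes, was 1.61-fold lower, at 28.5 ± 1.61 CPM in activated and 45.9 ± 2.29 CPM in dormant cells. HPX, for the heme scavenger hemopexin, had 3 activated and 117 dormant counts so that it was tested only because of its dormant counts. It is among the 7 lower genes. With at least 1 CPM required in 3 libraries, which HPX did not reach, 10 genes of this list were tested. Of these, 2 were higher and 6 lower, with a median of -0.34.

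Genes of the NRF2 axis, with FTH1, FTL and HMOX1 not counted among them, were mostly lower. Of these, 11 of 16 fell and 4 rose (12 and 2 with total counts), with a median of -0.65. Together 93.8% were called, beside 73.7% of all tested genes. NFE2L2, the gene for NRF2, had 73.5 ± 5.76 CPM in activated and 191 ± 7.56 CPM in dormant cells (adjusted p = 3.67e-11). KEAP1, its inhibitor, was 1.14-fold lower. OSGIN1 and MAFF were 7.49-fold and 7.08-fold lower, and GCLC, which makes the precursor of glutathione, 3.48-fold lower. This list and its direction were known from earlier results on these libraries, so they are no independent support for the ferritin values.

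Among 17 genes of ferritin autophagy and the autophagy steps it uses, 10 fell and 3 rose (12 and 2 with total counts), with a median of -0.33. These calls were 76.5% of the list, close to the 73.7% of all tested genes, so their number alone says little. The ATG8 family genes GABARAPL1 and MAP1LC3B were 3.27-fold and 2.91-fold lower, and RB1CC1, a scaffold of the initiating kinase, was 2.90-fold lower. ATG7, which activates the ATG8 proteins, was 2.81-fold higher. Of 11 tested ferroptosis genes, which set how far iron-driven lipid oxidation can kill a cell, 5 fell and 2 rose (6 and 2 with total counts), with a median of -0.16 that was -0.30 with total counts and -0.07 with no filter on low counts. Called ferroptosis genes made up 63.6%, below the 73.7% of all tested genes. SLC3A2, a subunit of the cystine importer, was 3.05-fold lower, CBS 4.46-fold lower and POR 2.07-fold lower, and LPCAT3, which loads polyunsaturated fatty acids into phospholipids, was 2.57-fold higher.

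**Figure D5:**
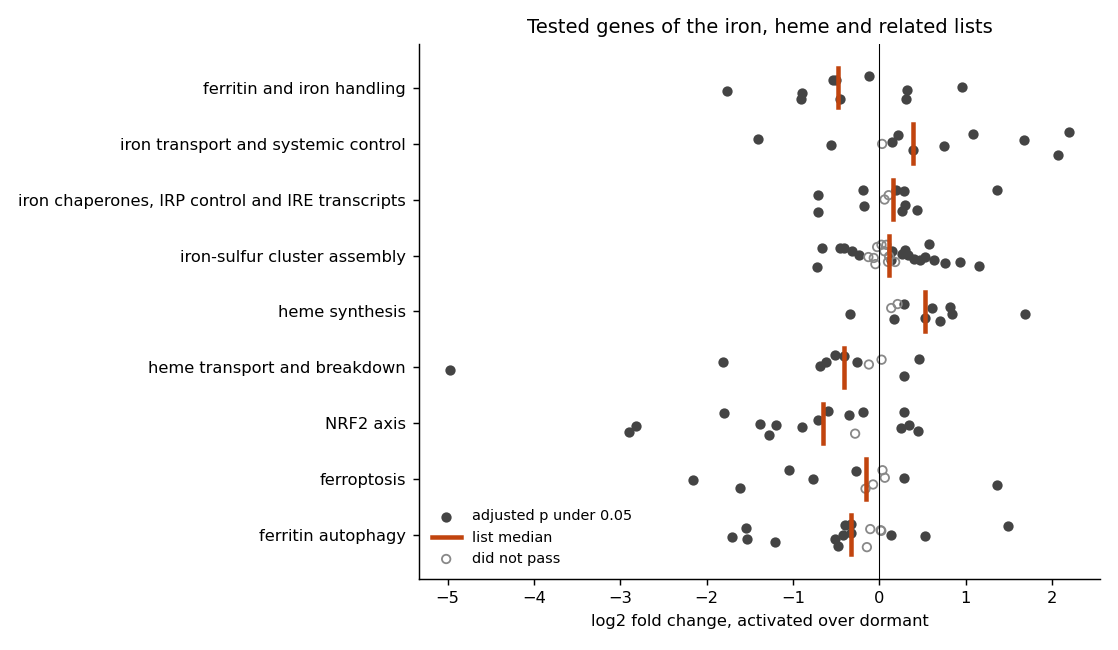
Each point is a tested gene's log2 fold change (x axis, activated over dormant), filled where the adjusted p was under 0.05 and open where it was not, and the red bar is the median of its list. The medians run from -0.65 for the NRF2 axis to 0.53 for heme synthesis, and the outermost point on the left is HPX, with 3 activated counts.

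Promoter letters were counted where given. RefSeq windows of 300 bases (GRCh38.p14) were at hand for 8 of the 10 genes, all but FTH1 and HMOX1, in 14 windows. The antioxidant response core TGACNNNGC, searched on both strands as were the next 3, stood in 1 of 14 windows, in NCOA4 after the start, against 13.3% of all windows. The AP-1 letters TGANTCA stood in 2 of 14 (7.71% of all windows), the hypoxia response core ACGTG in 2 of 14 (21.4%) and the E-box CACGTG, which contains that core, in 0 of 14 (7.26%). The hairpin letters without the pairing rule (C, any 5 bases, CAGTGN), read on the transcript strand in the 50 bases after the start, stood in 1 of 14 windows, that of FTL, against 1.67% of all windows.

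Library totals ran from 34478795 to 36397989 counts in activated and from 34128471 to 36667725 in dormant libraries. Log2 CPM correlated across genes at 0.989 to 0.991 within activated, 0.992 within dormant and 0.911 to 0.915 between groups, and every pair of replicates differed beyond sampling noise. Epithelial markers were present, with a summed level of 7432 to 8369 CPM in activated and 4983 to 5675 CPM in dormant libraries, mostly keratins. Of 6 tested, KRT8, KRT18 and CDH1 were higher in activated cells, KRT7 and EPCAM were lower and KRT19 did not pass, so KRT8 and KRT18 carry the higher sum. EPCAM was low, at 14 to 26 counts per activated and 26 to 65 per dormant library, and NKX2-1 and SFTPC had 0 or 1 count in each library. Of 9 myeloid markers, macrophages being rich in HMOX1 and SLC40A1, the summed level was 11.8 to 12.9 CPM in activated and 1.17 to 2.21 CPM in dormant libraries, mostly from CD14. CD14 had 303 to 321 counts per activated and 25 to 58 per dormant library, LAPTM5 63 to 78 per activated and 7 to 9 per dormant library, and CSF1R 21 to 29 per activated and 0 to 6 per dormant library. The others were too low to test, and LYZ had 3 or 4 counts per activated and 3 to 11 per dormant library, and FCER1G 1 to 5 per library of either group. AIF1 and C1QA had 0 counts in all libraries, and CD163 had 1 count in all. PTPRC had 0, 0 and 5 counts in activated and 0, 0 and 1 in dormant libraries. Of 8 osteoclast markers, 4 had 0 counts in all libraries (DCSTAMP, OCSTAMP, CALCR and TYROBP), and the summed level was 6.48 to 7.75 CPM in activated and 27.2 to 29.3 CPM in dormant libraries, where ATP6V0D2, a proton pump subunit, led with 660 to 797 counts per library, against 0 to 6 per activated library. MMP9 ran the other way, with 20 to 32 counts per activated and 5 or 6 per dormant library. CTSK had 202 to 234 counts per activated and 282 to 369 per dormant library. ACP5 had 0 to 4 per activated and 11 to 26 per dormant library. Of the 4 osteoclast markers tested, 1 was higher and 3 were lower in activated cells. The part of these markers in the values of the iron genes was not tested.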

How the data were processed

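Total RNA of 3 activated and 3 dormant A549 libraries was extracted with TRIzol, per the labels' protocols. The deposited count table holds whole-number counts per gene symbol, made by the authors with fastp, HISAT2, HTSeq and GRCh38, per the submitters' processing notes. Their versions, the annotation and the strand setting are not stated there. The FPKM table deposited by the authors holds those counts per gene length and library total, since the length implied by count over FPKM was within 1% across libraries for all 10754 genes with at least 100 counts in each library.

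Counts were tested with edgeR 4.0.16 (R 4.3.3; quasi-likelihood, TMM factors, default filter by group, Benjamini-Hochberg over 13336 genes, threshold 0.05), a procedure tested on simulated data. The simulation recovered 40% of 1.25-fold and 98% of 4-fold changes, with 9 false among 155 calls. It changed 50 genes at each fold, far fewer than the 9830 called in the data, so it does not cover so broad a change. SEs are the log2 fold change over the square root of F. Within-library FPKM ratios had exact permutation tests (scipy 1.17.1). Coordinates and promoters are RefSeq's and hairpins GENCODE's, all GRCh38. The stem criterion for hairpins was added after the data were seen.

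Genes named are the 10, and from each list up to 3 genes with the largest change in the main direction and 1 in the other (mean log2 CPM at least 1, past the threshold), plus ACO1, FBXL5, NFE2L2, KEAP1, BACH1, TF, HAMP and SLC39A14. HPX, BEST1 and the markers are named outside that rule, and 1 gene it picked is not reported here. Members and lists were chosen with earlier results of these data known. Alternatives were other scalings, DESeq2 1.42.0, limma 3.58.1 (voom or log2 FPKM), other filters, a gene length correction, a replicate block and leaving out each library. The limit behind a count of 0 is 3 counts over the group and covers counting error only.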

Additional observations from a re-analysis of the deposited data

How the results depend on the processing

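The number of genes passing, 9830, lay between 8959 and 10009 over the 12 settings with all libraries and between 9298 and 9756 with 1 library left out. Of the calls 49.5% were higher, 39.7% by total counts and 40.1% on filtered log2(FPKM + 0.1). The 10 iron genes kept their direction in all 180 values. FTH1, FTL, TFRC, NCOA4, SLC40A1, HMOX1, SLC11A2 and STEAP3 also stayed past the threshold, CYBRD1 lost its call in 10 settings and IREB2 in 3. Of 828 values of these and the other named genes, 813 kept their side of the threshold, 13 lost a call and 2, both of FBXL5, gained one. FBXL5, not past the threshold, changed sign in 4 settings, and no other named gene did. Of 288 list counts 8 moved by over 1.5 times. Higher NRF2 axis genes, 4 in the main test, were 2 with total counts and in the 3 settings on log2 FPKM. Higher regulators and chaperones, 6 in the main test, were 3 with filtered log2(FPKM + 1) and log2(FPKM + 0.1), and higher heme transport genes, 2 in the main test, were 1 in those 2. These settings share the scaling by total counts, and the filter on FPKM tested fewer genes. The 4 ratios kept their sign in all 36 values.

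A replicate block gave 9789 genes past the threshold, with the same 3 iron genes higher and 7 lower. Same-numbered libraries' deviations from their group means had correlations of -0.02, 0.02 and -0.01, which gives no sign of pairing. Few counts limit what can be said of TF and HAMP, and copies of FTH1 and FTL limit the absolute levels of these 2 genes.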
